A study of Mus musculus with 4 samples.

Results

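Capillary endothelial cells of the mouse retina were described here as 1627 of 21410 barcodes in 4 single-cell libraries. The members were chosen from raw counts of unique molecular identifiers (UMIs). A barcode had to hold at least 500 UMIs from at least 300 genes with at most 20% mitochondrial UMIs, which 19716 did. The endothelial gate asked for at least 4 UMIs over at least 2 of Cldn5, Cdh5, Pecam1 and Flt1, at most 1 UMI of the pericyte genes Pdgfrb, Kcnj8 and Abcc9 together, and at most 2 of the Müller glia gene Rlbp1, and 3388 barcodes passed it. Capillary cells were those with at least 2 UMIs of Mfsd2a, Spock2 and Slc22a8 together. Barcodes with at least 2 UMIs of the vein genes Slc38a5 and Nr2f2 were dropped, as were those with at least 3 UMIs of an inflamed-vessel set (Lcn2, Lrg1, Ackr1, Serpina3n), an artery set (Bmx, Sema3g, Hey1, Stmn2, Egfl8) or an interferon set (Ifit1, Ifit3, Isg15, Rsad2, Usp18).

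The study compared retinas of mice labelled Diabetic with retinas labelled Ctrl, with 2 libraries in each group, after live cells had been enriched with beads for CD31, a surface protein of endothelium. RNA was captured by the 10x Chromium method. The strain, age, sex, diabetes model and its duration are not given in the sources used here, and it is not stated if libraries 1 and 2 of a group are different mice, so p-values measure only the spread between libraries. The capillary class held 800 cells in Diabetic 1, 278 in Diabetic 2, 422 in Ctrl 1 and 127 in Ctrl 2, with 3051562, 1147686, 1859286 and 429086 UMIs in that order. Median depth lay between 2441 and 2878 UMIs per cell.

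Retinal capillary endothelium forms the inner blood-retina barrier. Its cells are sealed by tight junctions, take up few vesicles, and carry glucose, amino acids and lactate from blood to neurons through dedicated transporters. Norrin and Wnt signalling through the receptor Fzd4 maintains this state, and the lipid transporter Mfsd2a is known for keeping transcytosis low. Loss of capillary cells and leakage through this barrier are hallmarks of diabetic retinopathy.

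The markers that chose the class were unequal. Spock2, a matrix proteoglycan, had a UMI in 99.3% to 100% of the members of each library. Mfsd2a had one in 39.0% to 47.5% and the organic anion transporter Slc22a8 in 28.3% to 33.1%, and 54.3% to 58.3% of members held at least 2 of the 3 markers. The same marker sum was reached by 80.9% to 88.2% of all gated endothelial cells and by 87.2% to 94.0% of the artery-rule cells defined below. It was therefore the dropping of vein, inflamed, artery and interferon cells, more than the marker sum, that set the class apart within the endothelium, and the members are a capillary-enriched class by that rule.

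The values at the thresholds showed what the limits admit. In Diabetic 1 the 111 members with a marker sum of 2 had a median of 1569 UMIs, 848 CPM (counts per 1000000 UMIs) of the tight junction gene Cldn5 and 6.49% of their UMIs from 12 rod photoreceptor genes. The 125 barcodes just outside, with a sum of 1, had a median of 1301 UMIs, 464 CPM of Cldn5 and 6.84% rod RNA. The 689 members with a sum of at least 3 had 2785 CPM of Cldn5 and 2.86% rod RNA. Members at the lower limit thus resembled the excluded barcodes beside them more than the deeper members, and the same order of Cldn5 held in Diabetic 2 and Ctrl 2. In Ctrl 1 the 44 members with a sum of 2 had 324 CPM of Cldn5, against 354 CPM in the 33 barcodes just outside. In Diabetic 1 the dropping limits parted cells with near levels of Cldn5. There the 85 members with an artery sum of 2 had 3096 CPM of Cldn5, against 3561 CPM in the 56 barcodes just outside. The 87 members with an interferon sum of 2 had 3247 CPM, against 3299 CPM in the 36 just outside. For the vein limit, 121 members had a sum of 1 and 28 barcodes lay just outside, with 1553 and 1757 CPM. For the inflamed limit 25 members had a sum of 2 and 11 barcodes lay just outside, with 767 and 803 CPM. In Ctrl 1 the levels just inside and just outside were 1724 and 2923 CPM at the artery limit. They were 1345 and 501 CPM at its vein limit and 2624 and 2614 CPM at its interferon limit. At the vein limit of Ctrl 2 they were 4159 and 7623 CPM, the latter in 2 barcodes.

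Rod RNA varied widely among the members. Its share per cell ranged from 0.133% to 12.1% of UMIs. Cells above 2%, called rod-RNA cells here, were 163 and 21 of the Diabetic members and 118 and 18 of the Ctrl members. They held 44.3% and 28.2% of the capillary UMIs in Diabetic and 56.2% and 18.3% in Ctrl, so the first library of each group carried more of it than the second. Their median content of the 4 endothelial gate genes was 38.0 to 60.8 per 10000 UMIs, against 99.9 to 105 in the remaining members. Summed over 12 rod markers, all members had 35261 and 23743 CPM in Diabetic and 47340 and 17057 CPM in Ctrl. Without the rod-RNA cells, 1307 members (637, 257, 304 and 109) had 7707 and 5612 CPM in Diabetic and 9529 and 6703 CPM in Ctrl. Each comparison below was fitted on all members, as designed, and again without the rod-RNA cells.

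**Figure D1:**
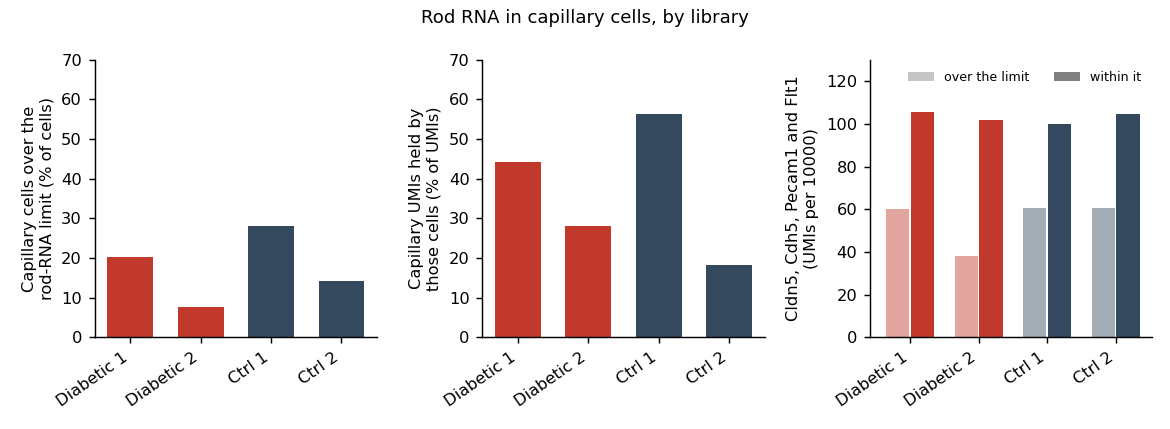
Rod RNA in capillary cells of the 2 Diabetic (red) and 2 Ctrl (dark blue) libraries. Bars give the share of members over 2% rod RNA (left), the share of capillary UMIs in them (middle) and the median content of Cldn5, Cdh5, Pecam1 and Flt1 in UMIs per 10000 (right; pale, over the limit; full colour, within it): the first library of each group holds the larger share, and cells over the limit hold at most 60.8 against at least 99.9.

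Other foreign RNA was smaller or sat in few cells. Müller glia markers summed to 2255 and 2363 CPM in Diabetic and 1606 and 2335 CPM in Ctrl, and pericyte and smooth muscle markers to 2070 and 2077 CPM in Diabetic and 1831 and 2564 CPM in Ctrl. Microglia markers reached 166 and 38.3 CPM in Diabetic and 52.7 and 6.99 CPM in Ctrl. Lymphocyte markers stayed at or below 1.64 CPM, with 5 of 7 at 0 in every library. The neutrophil genes S100a8 and S100a9 had 99 and 54 UMIs in Diabetic members and 0 and 0 in Ctrl members. Their 99 UMIs in Diabetic 1 were spread over 81 cells, while 1 cell held 37 of the 54 in Diabetic 2. The mitochondrial share was lower in the Diabetic libraries, with medians of 3.13% and 4.37% of UMIs, against 6.20% and 6.39% in Ctrl.

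To place the class within the vascular tree, capillary cells were compared with artery-rule cells (188, 83, 78 and 43) and vein-rule cells (61, 24, 49 and 9, in the order Diabetic 1, Diabetic 2, Ctrl 1, Ctrl 2), which reached the artery or the vein sum and no other dropping sum. The capillary marker sum was not used for them. The 27 genes that the rules read were left out of all tests. Since the classes were cut from the same counts, genes that vary with the dropped markers differ in part because of the cut. Log2 differences are capillary minus the other class with library as a block, and adjusted p-values throughout are from edgeR's quasi-likelihood test with Benjamini-Hochberg adjustment over all genes tested.

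Against artery-rule cells, the capillary class had lower levels of most further artery genes with and without rod-RNA cells, while the balance of the barrier transporters turned with those cells. Over all members 865 of 8684 genes were higher (9.96%) and 895 lower (10.3%), but all 12 rod markers were among the higher ones, and the 12 rod markers summed to 16730 and 8211 CPM in Diabetic and 18437 and 6812 CPM in Ctrl artery-rule cells, against the capillary sums above. Ikzf2, Pak5 and Adcy1 had the largest positive differences among the genes named by the rule there. Without rod-RNA cells 74 of 5956 genes were higher (1.24%) and 168 lower (2.82%), with 6 of 12 rod markers still higher, and the values below are from that comparison.

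Of 29 barrier transporters tested without rod-RNA cells, 9 were higher and 3 lower in capillary than in artery-rule cells, with a median log2 difference of 0.29 against 0.0028 over all genes. Over all members 2 of 30 were higher and 7 lower, with a median of -0.16, so the direction of the list rested on leaving the rod-RNA cells out. Slc7a5, the large neutral amino acid transporter that also carries thyroid hormone and L-DOPA, had 928 and 996 CPM in Diabetic and 874 and 1206 CPM in Ctrl capillary cells, against 545 and 612 CPM in Diabetic and 592 and 358 CPM in Ctrl artery-rule cells. The capillary value was above the artery-rule value in 4 of 4 libraries (0.90 ± 0.14, SE; edgeR adjusted p = 2.31e-05). The cationic amino acid carrier Slc7a1 (0.87 ± 0.12; edgeR adjusted p = 4.06e-06), the lactate and ketone carrier Slc16a1 (0.86 ± 0.12; 7.91e-06) and the transferrin receptor Tfrc (0.77 ± 0.13; 0.000117) had the same order in every library. Over all members Tfrc was still called (0.45 ± 0.16; edgeR adjusted p = 0.0418), while Slc7a5, higher in 3 of 4 libraries (0.39 ± 0.21; 0.222), Slc7a1 (0.37 ± 0.16; 0.0973) and Slc16a1 (0.42 ± 0.17; 0.0822) were not. Slc2a1, the glucose transporter, did not pass the test, at -0.24 ± 0.11 (edgeR adjusted p = 0.329), although over all members, with their rod RNA, it was called lower at -0.74 ± 0.18 (edgeR adjusted p = 0.00381). The thyroid hormone and anion transporter Slco1c1 likewise stood at -0.22 ± 0.13 without rod-RNA cells, where it was not called, and at -0.74 ± 0.15 with them, where it was.

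Other genes marked the capillary side of this comparison. Car4, a carbonic anhydrase bound to the capillary surface, had 67.0 and 59.4 CPM in Diabetic and 108 and 79.9 CPM in Ctrl capillary cells, against 16.4 and 12.4 CPM in Diabetic and 27.4 and 4.22 CPM in Ctrl artery-rule cells. It was higher in 4 of 4 libraries, at 2.24 ± 0.29 (edgeR adjusted p = 2.65e-06). Tiam1, an activator of the GTPase Rac1, followed at 1.32 ± 0.16, the actin-binding Tmsb10 at 1.30 ± 0.17 and the matrix protein Hmcn1 at 1.03 ± 0.14, each higher in 4 of 4 libraries. Tmsb10 is itself on the list of further vein genes used below. Of 21 further artery genes tested, 16 were lower in capillary cells and none higher, and over all members 19 of 21 were lower and none higher. Vegfc, a growth factor for lymphatic and other vessels, had 6.47 and 4.85 CPM in Diabetic and 28.3 and 8.56 CPM in Ctrl capillary cells, against 72.9 and 112 CPM in Diabetic and 147 and 181 CPM in Ctrl artery-rule cells, with no overlap (-3.33 ± 0.27; edgeR adjusted p = 1.27e-10). Gkn3 (-3.80 ± 0.29), the peptidase inhibitor Pi16 (-4.81 ± 0.36), the matrix gene Fbln2 (-3.10 ± 0.25), the gap junction gene Gja4 (-2.47 ± 0.33) and the ephrin ligand Efnb2 (-1.14 ± 0.17) were lower in every library. The caveola coat gene Cav1 was lower as well, at -0.86 ± 0.14 (edgeR adjusted p = 8.09e-05), and 4 of 10 caveola and transcytosis genes were lower and 1 higher. Tiam1, Tmsb10, Pi16 and Fbln2 were named by a rule that asked for the same sign in every library. That agreement is therefore no separate evidence for them. Car4, Vegfc, Gkn3 and Gja4 also met this rule.

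Against vein-rule cells, capillary cells had more of Cxcl12, Dll4 and Unc5b and less of Vcam1 and Flrt2 without rod-RNA cells. Over all members 1328 of 8684 genes were higher (15.3%) and 852 lower (9.81%). The 12 rod markers summed to 65212 and 38401 CPM in Diabetic and 73015 and 30587 CPM in Ctrl vein-rule cells, and 11 of 12 were called lower in capillary cells. Without rod-RNA cells, when 35, 19, 24 and 8 vein-rule cells remained, 52 of 5956 genes were higher (0.873%) and 59 lower (0.991%), while 8 of 12 rod markers were then higher in capillary cells. The 24 barrier transporters of 30 called higher over all members became 1 of 29, with 2 lower.

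The transporter that remained was Slco1c1, with 1018 and 1098 CPM in Diabetic and 1149 and 1172 CPM in Ctrl capillary cells, against 607 and 586 CPM in Diabetic and 401 and 328 CPM in Ctrl vein-rule cells (1.11 ± 0.15; edgeR adjusted p = 3.9e-05). Slc7a5 (0.36 ± 0.15) and Slc2a1 (0.11 ± 0.12) did not pass the test. Cxcl12 had 6644 and 6000.0 CPM in Diabetic and 5032 and 4578 CPM in Ctrl capillary cells, against 2833 and 2541 CPM in Diabetic and 1571 and 802 CPM in Ctrl vein-rule cells (1.56 ± 0.15; edgeR adjusted p = 2.15e-08). Levels were thus higher in capillary than in vein-rule cells of every library, and within both classes higher in the Diabetic than in the Ctrl libraries. The netrin receptor Unc5b (2.15 ± 0.46), Ivns1abp (2.03 ± 0.34), the Notch ligand Dll4 (1.41 ± 0.33) and Hmcn1 (1.32 ± 0.21) were also higher in every library. Cxcl12, Unc5b, Ivns1abp and Dll4 met the naming rule that asked for the same sign in every library, and Hmcn1 met it over all members. The agreement between libraries is therefore no separate evidence for these genes. Of 19 further vein genes tested, 9 were lower and 1 higher in capillary cells. Vcam1, which binds leukocytes, stood at -2.83 ± 0.41 and the axon guidance gene Flrt2 at -2.74 ± 0.27. Car4 was lower in capillary than in vein-rule cells (-1.32 ± 0.23; edgeR adjusted p = 0.000886) while it was higher than in artery-rule cells, and Vwf, which is stored in endothelial granules and recruits platelets, was at -0.97 ± 0.19. Over all members Car4, Vwf and Cav1 were not called against vein-rule cells.

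**Figure D2:**
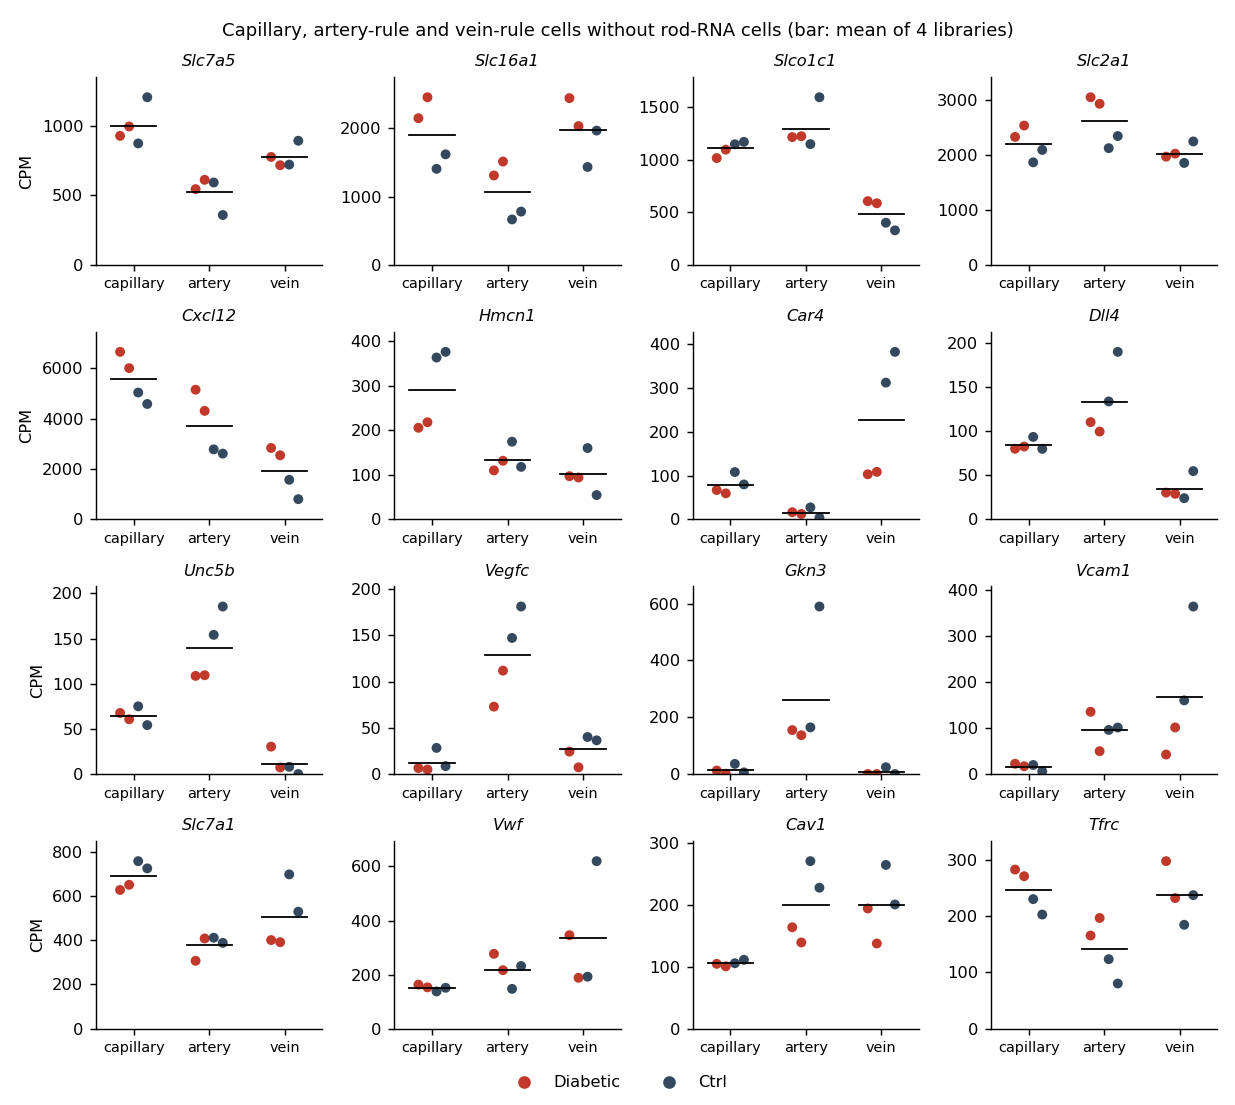
Levels in CPM of 16 genes in capillary, artery-rule and vein-rule cells without rod-RNA cells; each point is 1 library, Diabetic red and left of Ctrl dark blue, and bars are the mean of 4 libraries. Slc7a5, Slc16a1 and Hmcn1 are higher in capillary than in artery-rule cells, Slco1c1, Cxcl12, Dll4 and Unc5b higher than in vein-rule cells, and Cav1 lower than in both; the vein-rule point of Ctrl 2 rests on 8 cells.

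The main comparison asked what differed between Diabetic and Ctrl capillary cells. Over all members, 1 gene of 10912 was called higher in Diabetic (0.00916%) and 0 lower (0%) at an adjusted p under 0.05, while 363 (3.33%) had an unadjusted p under 0.05, 226 higher (2.07%) and 137 lower (1.26%). The called gene was Hbb-bt, a haemoglobin chain, at 149 and 193 CPM in Diabetic and 3.23 and 0 CPM in Ctrl (log2 difference 5.997 ± 0.48; edgeR adjusted p = 0.00847). Almost all haemoglobin sat in few cells: 3 members of Diabetic 1 and 1 of Diabetic 2 had over 5% haemoglobin UMIs, and 1 Diabetic 2 cell held 4651 of its library's 4708. Without those cells the 4 haemoglobin genes summed to 96.3 and 50.3 CPM in Diabetic and 31.7 and 58.3 CPM in Ctrl, and no gene was called in either direction by edgeR. DESeq2 called 6 higher in all members, namely Hbb-bt, Hbb-bs, Hba-a1, S100a9, Fos and Ccn1, and none lower.

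Without rod-RNA cells the spread between libraries of a group was smaller, and 8760 genes were tested, of which 119 were called higher (1.36%) and 113 lower (1.29%), with 1172 (13.4%) at an unadjusted p under 0.05. All 232 had also been tested over all members, where 231 had the same direction and 111 an unadjusted p under 0.05. Leaving out 1 library at a time gave 50 to 98 higher and 39 to 99 lower genes, and 50 of the 232 were called in all 4 repeats, while 226 kept their direction in all 4. The remaining rod RNA leaned lower in Diabetic: all 12 rod markers had a negative log2 difference. Of these 2 were called lower, Sag at -0.58 ± 0.14 and Gngt1 at -0.59 ± 0.13. The summed rod markers overlapped between the groups, with 7707 CPM in Diabetic 1 and 6703 CPM in Ctrl 2. Blood RNA remained as well, since haemoglobin-rich cells were not removed from this fit. Of the erythrocyte and platelet markers 4 of 4 tested were called higher, and of the neutrophil markers 2 of 2. The erythrocyte and platelet markers summed to 2193 and 5751 CPM in Diabetic and 43.0 and 54.2 CPM in Ctrl. The part of rod and blood RNA in the results below was not tested. Values in the paragraphs that follow are CPM without rod-RNA cells, with the log2 difference Diabetic minus Ctrl, unless all members are named. Counts of called list members stand beside 1.36% of all genes called higher and 1.29% lower. Unadjusted counts over all members stand beside 2.07% of all genes higher and 1.26% lower. Lack of overlap between the groups is only a description there. With 2 libraries per group unchanged genes can also lack it, and its share over all genes is not given. It was also a condition for naming part of the genes. Of the genes called here, 112 of 119 higher and 99 of 113 lower ones lacked overlap at a mean of 20 CPM or more. Lack of overlap thus hardly sets called genes apart.

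Heat-shock chaperones, which fold proteins and assist the chaperone Hsp90, were lower in Diabetic. Of 19 measured, 10 were called lower and none higher, with a median log2 difference of -0.57 against -0.0007 over all genes. Over all members none was called, 7 of 19 had an unadjusted p under 0.05, all of them lower, and the median was -0.47. Hsph1, a nucleotide exchange factor of the Hsp70 cycle (chromosome 5, 149616843 to 149636498), had 14.7 and 12.1 CPM in Diabetic and 75.0 and 62.7 CPM in Ctrl. The lowest Ctrl library was above the highest Diabetic one by more than the spread within either group (-2.38 ± 0.30; edgeR adjusted p = 6.35e-10), and it was called in all 4 repeats without 1 library. Over all members it had 16.4 and 13.9 CPM in Diabetic and 54.3 and 60.6 CPM in Ctrl, a difference of -1.90 ± 0.28 that did not pass (edgeR adjusted p = 0.204).

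Dnaja1, a cochaperone of Hsp70, had 188 and 164 CPM in Diabetic and 355 and 434 CPM in Ctrl (-1.17 ± 0.15; edgeR adjusted p = 5.75e-10). Stip1, which links Hsp70 to Hsp90, had 35.3 and 35.2 CPM in Diabetic and 83.6 and 77.0 CPM in Ctrl (-1.24 ± 0.24; edgeR adjusted p = 0.000172). The mitochondrial chaperonin gene Hspd1 had 87.6 and 60.7 CPM in Diabetic and 145 and 145 CPM in Ctrl (-0.94 ± 0.18; edgeR adjusted p = 8.69e-05). None of these 3 genes overlapped between the groups. The Hspd1 partner Hspe1 (-0.66 ± 0.17), the cytosolic Hsp90aa1 (-0.89 ± 0.13) and Hspa8 (-0.75 ± 0.13), and Cacybp (-0.83 ± 0.18) were lower too. Of the 4 repeats without 1 library, Hspe1 was called in 1, Cacybp in 2 and Stip1 in 3. The inducible Hsp70 genes did not go with them: Hspa1a had 405 and 366 CPM in Diabetic and 289 and 351 CPM in Ctrl (0.27 ± 0.14; edgeR adjusted p = 0.419), and Hspa1b stood at 0.25 ± 0.16. A UMI of Hsph1 was seen in 5.63% and 5.04% of Diabetic members and 17.5% and 16.5% of Ctrl members, or in 1.81% and 2.02% and in 6.28% and 3.51% after thinning each cell to 1000 UMIs. In rods of the same libraries the shares before thinning were 6.14% and 7.60% in Diabetic and 12.2% and 13.5% in Ctrl. Before thinning the Diabetic capillary shares were thus not above those of rods. After thinning, rods had 2.43% in Diabetic 1 and 1.35% in Diabetic 2. The Diabetic 1 capillary share was then below that of rods, and the Diabetic 2, Ctrl 1 and Ctrl 2 capillary shares were above it. Whether RNA from rods takes part in the capillary difference was not tested.

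Heat-shock genes are known to be switched on by heat-shock factor through an element of 3 inverted repeats of a 5-base unit. The promoter stretches of Hspe1 and Hsph1 are shown because they hold this element, with the matched bases in capitals, from RefSeq on GRCm38.p6. In Hspe1 the capitals lie 89 to 72 bases before the start. Hspd1 is the neighbour on the other strand of chromosome 1, and the stretch lies inside its annotated gene, upstream of an inner RefSeq start only. It covers chr1:55088035-55088100 on the plus strand, and the Hsph1 stretch, whose match begins 16 bases after one of its annotated starts, covers chr5:149636280-149636308 on the minus strand.
Hspe1: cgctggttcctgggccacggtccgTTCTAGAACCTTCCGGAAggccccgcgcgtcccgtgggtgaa
Hsph1: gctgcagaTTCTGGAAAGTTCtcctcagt
The search used GAA, NN, TTC, NN, GAA in one run, or the same with TTC outside and GAA inside, without mismatch and on both strands, on windows from 250 bases before to 50 bases after each start, and overlapping matches were merged. The element was in 198 of 32851 windows (0.603%) and in 5 of the 22 windows of heat-shock genes, which belonged to Hsph1, Hspd1, Hspe1 and Chordc1. The matches of Hspd1 and Hspe1 are the same bases read from opposite strands, so they are not separate elements. Windows of 16 of the 19 listed genes were in the table. All 4 genes were among the 10 of 19 heat-shock genes called lower. A match of letters is a description of the window only, and a part of the element in the lower levels was not tested.

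Immediate-early genes, transcription factors and feedback genes that respond within minutes to growth factors, flow or handling of tissue, were higher in Diabetic. Of 23 tested, 13 were called higher and none lower, with a median of 0.54. Over all members none was called, 11 of 23 were higher at an unadjusted p under 0.05, and the median was 0.66. Fos (chromosome 12, 85473890 to 85477274) had 2129 and 1968 CPM in Diabetic and 870 and 479 CPM in Ctrl (1.53 ± 0.13; edgeR adjusted p = 3.56e-19). Junb had 1066 and 1058 CPM in Diabetic and 533 and 553 CPM in Ctrl (0.94 ± 0.13; edgeR adjusted p = 9.52e-09), so both Diabetic libraries lay above both Ctrl libraries for each partner of this dimer. Atf3, a stress-induced repressor (1.29 ± 0.19), Egr1 (0.95 ± 0.16) and the mRNA-decay factor Zfp36 (0.87 ± 0.14) also lay without overlap. In Fos the 2 Ctrl libraries differed from each other more than the Diabetic ones did.

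Genes of the acute-phase response and of STAT3 signalling, the pathway downstream of interleukin 6 and related cytokines, were also higher. Of 15 tested, 6 were called higher and none lower, with a median of 0.86. Over all members 10 of 16 were higher at an unadjusted p under 0.05, none was called, and the median was 1.04. This list shares Junb with the immediate-early list, and 3 of its 27 genes were read by the selection rule and not tested. Socs3, the feedback inhibitor of this pathway (chromosome 11, 117966079 to 117970336), had 125 and 156 CPM in Diabetic and 43.0 and 37.1 CPM in Ctrl (1.71 ± 0.22; edgeR adjusted p = 6.35e-10). Cebpd, a transcription factor of the acute phase, had 201 and 200 CPM in Diabetic and 70.1 and 71.3 CPM in Ctrl (1.47 ± 0.18; edgeR adjusted p = 2.87e-10). The survival kinase Pim3 had 306 and 375 CPM in Diabetic and 97.1 and 120 CPM in Ctrl (1.65 ± 0.17; edgeR adjusted p = 2.85e-14). All of these were without overlap and called in all 4 repeats without 1 library.

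Ch25h, which makes 25-hydroxycholesterol, was low in all libraries but had the largest called difference in this list, with 32.9 and 47.3 CPM in Diabetic and 4.92 and 5.70 CPM in Ctrl (2.83 ± 0.48; edgeR adjusted p = 8.53e-06). Outside this list Ccn1, a secreted matricellular protein, had 346 and 313 CPM in Diabetic and 118 and 91.3 CPM in Ctrl (1.58 ± 0.17; edgeR adjusted p = 7.76e-14). A UMI of Socs3 was seen in 19.1% and 22.7% of Diabetic members and 7.35% and 6.30% of Ctrl members. In rods, a type that should hold little of it, the shares were 3.04% and 2.84% in Diabetic and 1.28% and 2.00% in Ctrl, at median depths of 1920 to 3117 UMIs. After each cell had been thinned to 1000 UMIs, the capillary shares were 9.19% and 8.91% in Diabetic and 2.19% and 3.51% in Ctrl. Shallower cells, 82 and 31 Diabetic and 56 and 13 Ctrl members, were left out of the thinned values.

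**Figure D3:**
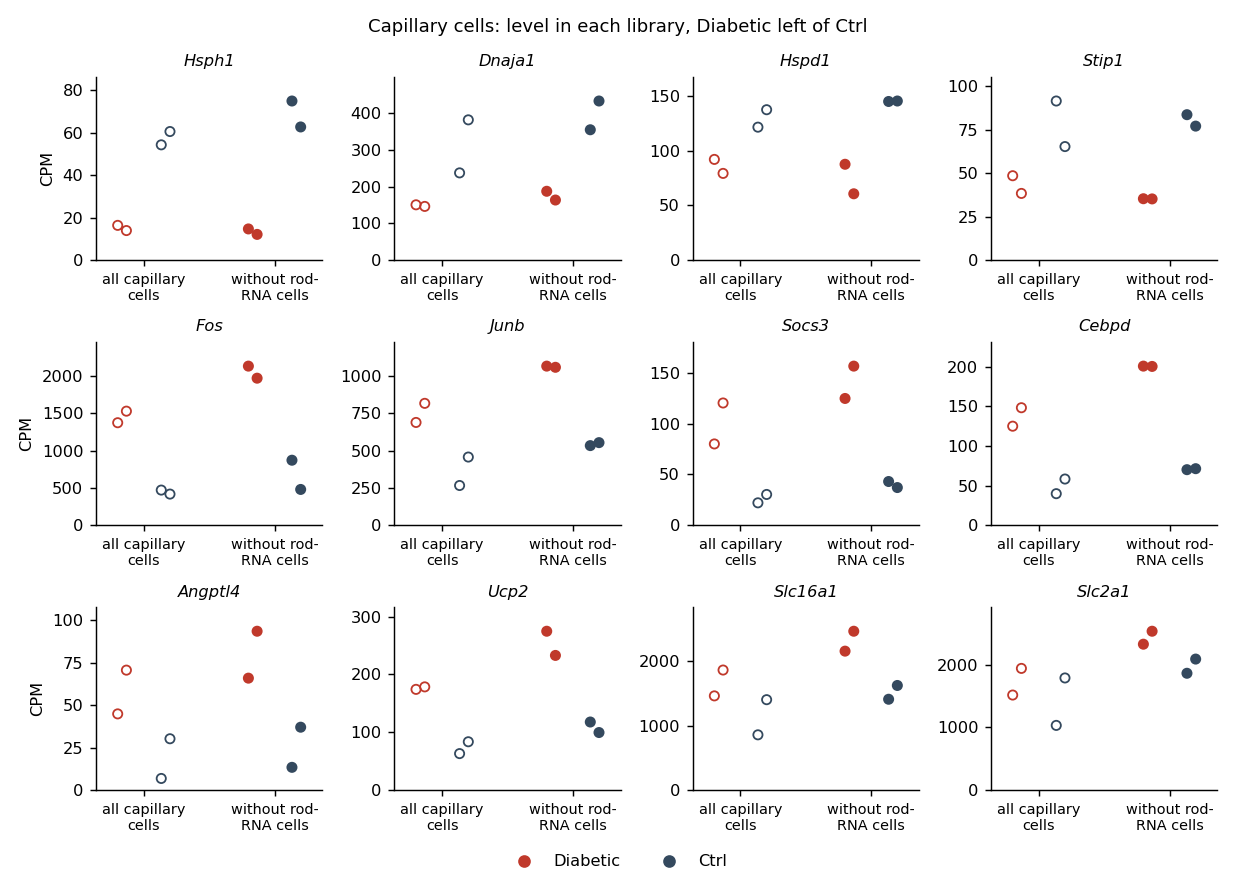
Levels in CPM of 12 genes in capillary cells, per library, Diabetic (red) left of Ctrl (dark blue); the left pair in each panel is all members and the right pair members without rod-RNA cells. Hsph1, Dnaja1, Hspd1 and Stip1 are lower and Fos, Junb, Socs3, Cebpd and Ucp2 higher in both Diabetic libraries in either set, while Slc2a1 overlaps between the groups among all members.

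Fatty acid genes, many of them targets of the lipid-sensing PPAR receptors, leaned higher. Of 19 tested, 4 were called higher and none lower, with a median of 0.44, while over all members none of 22 was called and the median was 0.13. Angptl4, a secreted inhibitor of lipoprotein lipase that is also known to loosen vessels (chromosome 17, 33774900 to 33781575), had 65.9 and 93.4 CPM in Diabetic and 13.5 and 37.1 CPM in Ctrl (1.83 ± 0.30; edgeR adjusted p = 3.45e-06). The groups did not overlap, but the 2 Ctrl libraries were unlike each other: without Ctrl 1 the log2 difference was 0.98 and not called (edgeR adjusted p = 0.212), and without Ctrl 2 it was 2.46. A UMI of Angptl4 was in 13.9% and 19.1% of Diabetic members and 3.08% and 8.66% of Ctrl members, against at most 0.980% of rods in any library. The mitochondrial uncoupling protein gene Ucp2 had 275 and 233 CPM in Diabetic and 118 and 99.8 CPM in Ctrl (1.17 ± 0.17; edgeR adjusted p = 3.92e-08). From the glucose-response list, Txnip, the glucose-induced inhibitor of thioredoxin, had 374 and 408 CPM in Diabetic and 251 and 280 CPM in Ctrl (0.54 ± 0.15; edgeR adjusted p = 0.0188). Over all members Txnip overlapped between the groups, and it was called in 1 of 4 repeats without 1 library.

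Of 31 barrier transporters tested, 3 were called higher and 1 lower, with a median of -0.17, against 1.36% of all genes called higher and 1.29% lower. At an unadjusted p under 0.05, 5 were higher and 4 lower, against 13.4% of all genes in either direction. Over all members none of 33 was called, and the median was -0.15. Slc16a1, which carries lactate and ketone bodies (chromosome 3, 104638664 to 104658462), had 2150 and 2458 CPM in Diabetic and 1407 and 1620 CPM in Ctrl (0.58 ± 0.12; edgeR adjusted p = 0.000278). The taurine carrier Slc6a6 (0.47 ± 0.12; edgeR adjusted p = 0.00521) and Slc3a2, the partner chain of Slc7a5 (0.53 ± 0.13; 0.00558), were higher as well. The glutamate carrier Slc1a1 was lower, with 128 and 132 CPM in Diabetic and 181 and 222 CPM in Ctrl (-0.63 ± 0.16; edgeR adjusted p = 0.00915). Without 1 library, Slc16a1 was called in 3 of 4 repeats, missing without Diabetic 2 (edgeR adjusted p = 0.207), and Slc6a6, Slc3a2 and Slc1a1 were each called in 1 of 4. The main glucose carrier Slc2a1 had 2324 and 2531 CPM in Diabetic and 1862 and 2088 CPM in Ctrl and was not called (0.27 ± 0.11; edgeR adjusted p = 0.248), nor were the drug efflux pumps Abcb1a (-0.19 ± 0.12) and Abcg2 (-0.24 ± 0.13) or Slc7a5 itself (-0.13 ± 0.13).

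Of 15 junction genes tested none was called in either direction, and the median was -0.11. Cldn5, read by the selection rule and so only described, had 2429 and 3007 CPM in Diabetic and 1672 and 3447 CPM in Ctrl over all members, with overlap, and occludin, Ocln, stood at -0.13 ± 0.16. Of 24 Norrin and Wnt genes, 1 was called, the receptor Fzd6, with 168 and 172 CPM in Diabetic and 247 and 237 CPM in Ctrl (-0.55 ± 0.15; edgeR adjusted p = 0.0223), and it was called in 1 of 4 repeats without 1 library. Fzd4, the Norrin receptor, had 216 and 232 CPM in Diabetic and 270 and 299 CPM in Ctrl and did not pass (-0.37 ± 0.15; edgeR adjusted p = 0.199). The transcription factor of the pathway, Lef1 (-0.33 ± 0.13), and its target Apcdd1 (0.27 ± 0.16) did not pass either. Vesicle genes of the caveola list gave no call among 11.

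Genes typical of capillaries went both ways. Of 27 further capillary genes tested, 7 were higher and 2 lower. Ctla2a, a protease inhibitor, had 1575 and 1463 CPM in Diabetic and 851 and 653 CPM in Ctrl (0.97 ± 0.12; edgeR adjusted p = 6.86e-10), and Tmem252 had 259 and 233 CPM in Diabetic and 114 and 108 CPM in Ctrl (1.11 ± 0.17). The Ctla2a difference was larger in the other endothelial cells, by the interaction test described below (-0.74; edgeR adjusted p = 0.000142). The heparin-binding growth factor Ptn had 637 and 534 CPM in Diabetic and 1203 and 1010 CPM in Ctrl (-0.95 ± 0.13; edgeR adjusted p = 2.42e-09). Ivns1abp, which was also higher in capillary than in vein-rule cells, stood at -1.03 ± 0.17. Car4 had 67.0 and 59.4 CPM in Diabetic and 108 and 79.9 CPM in Ctrl and missed the threshold (-0.65 ± 0.20; edgeR adjusted p = 0.0583). Bcl6b, a transcriptional repressor, had 22.3 and 24.3 CPM in Diabetic and 51.6 and 51.3 CPM in Ctrl (-1.19 ± 0.30; edgeR adjusted p = 0.00685), and was called in 2 of 4 repeats without 1 library. Among artery genes, of which 3 of 20 were higher and 3 lower, Mgp, an inhibitor of calcification, had 1162 and 770 CPM in Diabetic and 361 and 339 CPM in Ctrl (1.43 ± 0.14; edgeR adjusted p = 1.92e-15).

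Of 11 adhesion and chemokine genes tested, 3 were called higher and 1 lower, with a median of 0.25. Over all genes 1.36% were called higher and 1.29% lower, with a median of -0.0007. Icam1, which binds leukocyte integrins, had 37.1 and 35.2 CPM in Diabetic and 17.2 and 8.56 CPM in Ctrl (1.28 ± 0.37; edgeR adjusted p = 0.0358), but it was called in none of the 4 repeats without 1 library. Vcam1 had 22.3 and 17.0 CPM in Diabetic and 19.7 and 5.70 CPM in Ctrl and was not called (0.38 ± 0.43). Of 10 complement and coagulation genes 3 were higher and none lower, among them the complement inhibitor Cd59a, with 377 and 362 CPM in Diabetic and 226 and 211 CPM in Ctrl (0.72 ± 0.15; edgeR adjusted p = 0.000437), called in 3 of 4 repeats without 1 library. None of 18 NF-kB genes, 18 MHC class I genes or 18 glycolysis genes was called. Of 11 genes encoded in the mitochondrial genome 6 were lower and none higher, with a median of -0.42, beside the lower mitochondrial share given above. Among them mt-Nd2 had 2502 and 3101 CPM in Diabetic and 3633 and 4338 CPM in Ctrl (-0.54 ± 0.11; edgeR adjusted p = 0.000528), which was not called without Diabetic 1 (edgeR adjusted p = 0.452). For mt-Atp6, at -1.19 ± 0.20, the call rested on Ctrl 2, with 171 and 294 CPM in Diabetic and 194 and 898 CPM in Ctrl, and the log2 difference was 0.18 without that library.

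**Figure D4:**
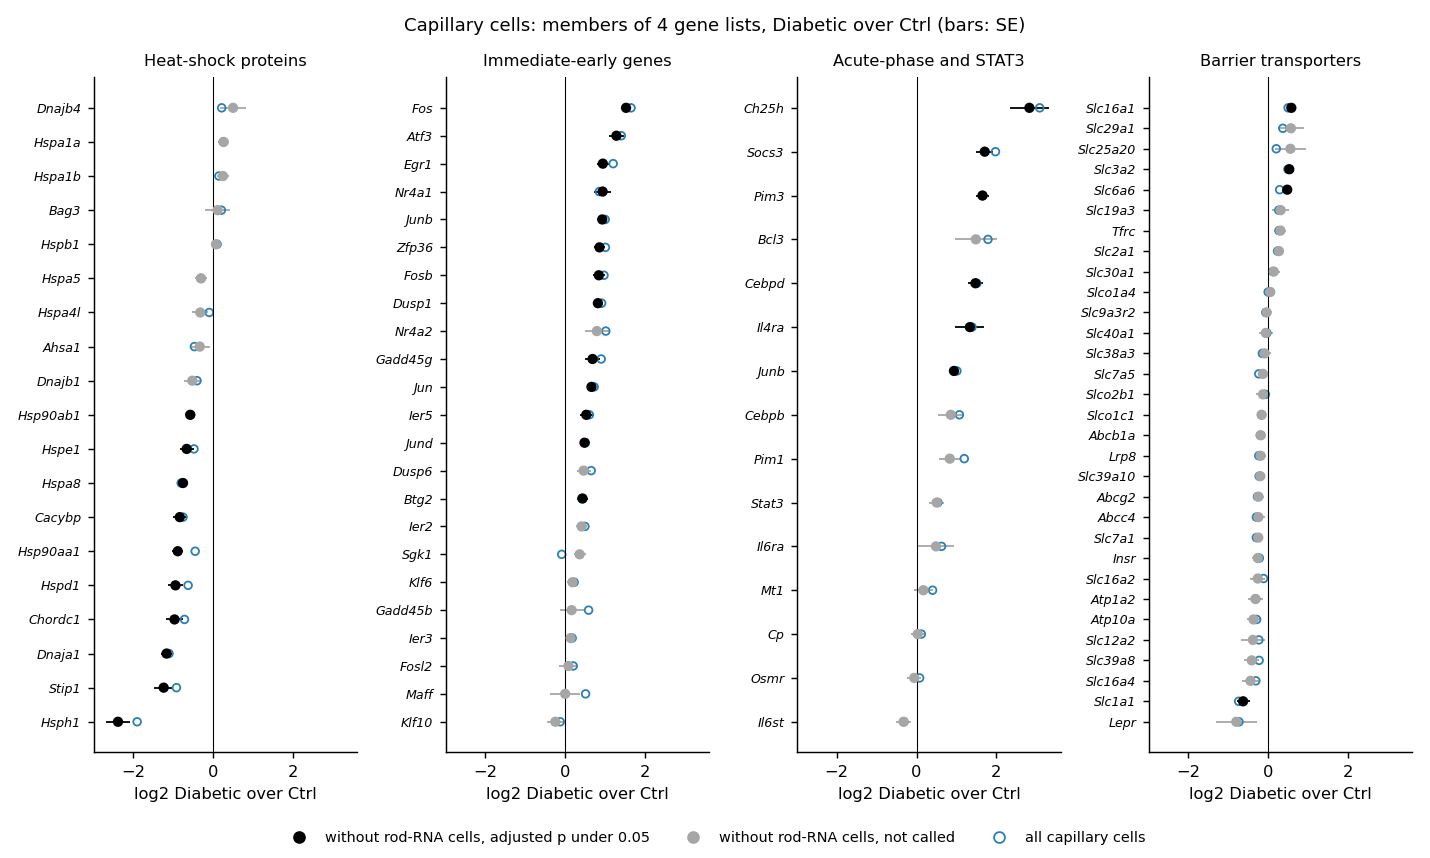
Log2 difference Diabetic over Ctrl in capillary cells for the tested members of 4 gene lists. Filled points with SE bars are values without rod-RNA cells, black where the edgeR adjusted p is under 0.05 and grey otherwise, and open blue points are all members: 10 of 19 heat-shock genes are black on the left of 0, 13 of 23 immediate-early and 6 of 15 acute-phase genes black on the right, and 4 of 31 transporters are black.

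The last comparison asked whether the Diabetic difference was another one in capillary cells than in the other cells of the endothelial gate, which numbered 903 and 398 in Diabetic and 321 and 139 in Ctrl. Those cells held the dropped inflamed cells. Counted at a capillary marker sum of at least 2, there were 110 and 69 in Diabetic and 3 and 1 in Ctrl. The difference itself was tested as an interaction over 12489 genes. In 1 gene the Diabetic effect was higher in capillary cells (0.00801%) and in 3 it was lower (0.024%), and 402 (3.22%) had an unadjusted p under 0.05. Vwf was the endothelial gene among them (chromosome 6, 125552948 to 125686679). It had 107 and 116 CPM in Diabetic and 76.9 and 135 CPM in Ctrl capillary cells, while the other endothelial cells had 245 and 312 CPM in Diabetic and 61.4 and 135 CPM in Ctrl. The groups overlapped in capillary cells and not in the others, and the interaction was -1.50 ± 0.22 (edgeR adjusted p = 0.0116), or -1.51 without rod-RNA cells (edgeR adjusted p = 9.34e-06). The part of the inflamed cells in it was not tested.

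The other 3 genes code for proteins of lens and blood. The crystallins Cryaa (-3.20 ± 0.45) and Crybb2 (-2.82 ± 0.43) were highest in Ctrl 1 capillary cells, where 2 cells held 56.5% of 1162 crystallin UMIs. The haemoglobin gene Hbb-bs (3.81 ± 0.65; edgeR adjusted p = 0.0426) had 803 and 2874 CPM in Diabetic and 17.7 and 28.0 CPM in Ctrl capillary cells, against 1491 and 4444 CPM in Diabetic and 721 and 25.1 CPM in Ctrl cells of the other class. Its value without Ctrl 1 was -0.97. Without rod-RNA cells 13 of 9715 genes were called, 4 with a higher effect in capillary cells (0.0412%) and 9 with a lower one (0.0926%). The effect was lower in capillary cells for Fth1 (-0.99; edgeR adjusted p = 6.80e-08), Ctla2a (-0.74; 0.000142) and Cd200 (-0.57; 0.0468). It was higher for Tgfb2 (0.90; 0.0247). Over all members Fth1, Ctla2a, Cd200 and Tgfb2 were not called. The others were Vwf, Apod, Ptgds, and crystallin and haemoglobin genes. For Hsph1, Fos, Socs3 and Angptl4 the interaction was not called, so a difference between capillary and other endothelial cells was not shown for them.

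**Figure D5:**
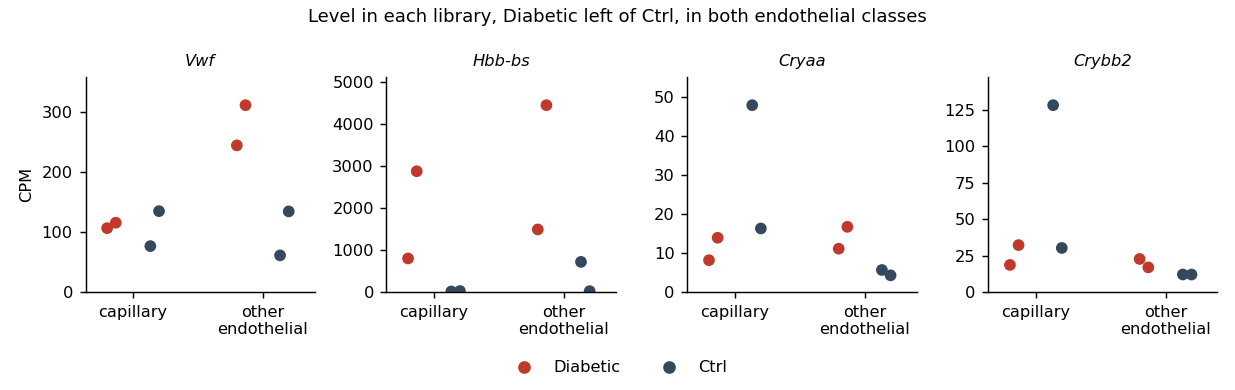
Levels in CPM of the 4 genes called in the interaction, per library, in capillary cells and in the other cells of the endothelial gate, Diabetic (red) left of Ctrl (dark blue). Vwf is higher in both Diabetic than in both Ctrl libraries of the other cells and overlaps in capillary cells, while the crystallin points stand out in 1 Ctrl library of capillary cells.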

How the data were processed

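Gene counts (UMIs per gene and barcode, 55357 genes) were deposited by the authors as filtered 10x matrices; per the submitters' processing notes, Cell Ranger 7.0.0, STAR 2.7.10b and mm10 were used, and doublet removal is not given in the sources used here. Members and gene lists were chosen with earlier results of these data known. Counts were summed per library and class and tested with edgeR 4.0.16 (quasi-likelihood, TMM, filterByExpr; R 4.3.3), with 2 libraries per group; the 27 rule genes stayed in library sizes but out of tests. SE is the absolute log2 difference divided by the square root of F. Zone comparisons carried library as a block. CPM is the sum over the class total times 1000000, and the ± after a log2 difference is the SE. The scripts were tested on simulated data. DESeq2 1.42.0 was an alternative. Scrublet's own threshold marked too few barcodes, so doublets were taken at 0.8% per 1000 cells; they stayed in the main class and were left out in an alternative. Libraries shared 5 to 9 barcodes per pair, none of them capillary. The comparisons without rod-RNA cells were a listed alternative for Diabetic against Ctrl and were added after seeing the data for the others; that most values in the text come from them was decided after their results were seen.

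Named genes were the 12 highest and 12 lowest called ones without overlap at 20 CPM or more, up to 4 per list by smallest p, 27 fixed genes, the 8 highest and 8 lowest per zone comparison at 50 CPM or more with 1 sign in every library, and the 8 smallest p of the interaction; other genes were chosen after their values were seen. Gene positions are RefSeq's on GRCm38.p6. Intervals and shares cover counting error only. Results for some genes are not reported here.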

Additional observations from a re-analysis of the deposited data

Results flagged for a closer look

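Results whose Diabetic effect differed between capillary cells and the other endothelial cells by the interaction test are given here as values. The log2 difference of effects was -1.50 for Vwf, -3.20 for Cryaa, -2.82 for Crybb2 and 3.81 for Hbb-bs, each with edgeR adjusted p under 0.05 over 12489 genes. For Vwf the capillary groups overlapped, while those of the other endothelial cells did not. Inflamed cells with a capillary marker sum of at least 2 numbered 110 and 69 there in Diabetic and 3 and 1 in Ctrl. For Cryaa and Crybb2, 2 capillary cells of Ctrl 1 held 56.5% of its crystallin UMIs. For Hbb-bs the value was -0.97 without Ctrl 1.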

How the results depend on the processing

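With 2 libraries per group, the counts of called genes moved with most settings, and the cause was not tested. For Diabetic against Ctrl, genes higher and lower were 1 and 0 in the main comparison, 34 and 16 with no filter on low counts, 16 and 2 at a marker sum of at least 1, 0 and 0 at a sum of at least 3, 43 and 25 with thinned cells, 119 and 113 without rod-RNA cells, and 6 and 0 by DESeq2. None was called with equal cells, without called doublets, without the drop rules or without haemoglobin-rich cells. Leaving out 1 library gave 5 to 165 higher and 1 to 153 lower, and without rod-RNA cells 50 to 98 and 39 to 99. The labels state no pairing by replicate number, and none was used in the main comparison. With 2 libraries per group both numbers necessarily give the same value, a correlation of 0.4227 over 9046 genes. The fit with a replicate block called 42 higher and 18 lower.

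Against artery-rule cells, genes higher and lower in capillary cells were 259 and 286 at a sum of at least 3 and 74 and 168 without rod-RNA cells, and 455 to 864 and 380 to 1019 without 1 library. Against vein-rule cells they were 52 and 59 without rod-RNA cells and 544 to 1501 and 241 to 906 without 1 library, and 1410 were lower at a sum of at least 3. The interaction gave 0 higher with RLE normalization, 3 and 10 with no filter, 0 and 0 at a sum of at least 3, 4 and 9 without rod-RNA cells, and 0 to 111 and 0 to 36 without 1 library.

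Of the single genes' 1394 values under alternatives, for 94 genes and comparisons, 1025 kept direction and side of the threshold, 306 were called only under the alternative, 28 lost the call and 35 changed sign. Without 1 library, over fits with and without rod-RNA cells, log2 differences Diabetic minus Ctrl spanned -0.15 to 0.74 for Slc2a1, -0.58 to 0.30 for Abcb1a, -0.65 to 0.21 for Abcg2, -0.76 to 0.55 for Slc7a5, -0.76 to 0.36 for Ocln, -0.75 to 0.045 for Fzd4, -0.62 to 0.045 for Lef1, -0.32 to 0.84 for Apcdd1, -0.39 to 0.52 for Vwf, -2.20 to 0.29 for mt-Atp6, -0.94 to 0.33 for Sag, -0.94 to 0.54 for Gngt1, -0.10 to 0.67 for Hspa1a and -0.17 to 0.44 for Hspa1b. Over all members, capillary minus vein-rule differences spanned -0.52 to 0.27 for Car4, -0.055 to 0.57 for Vwf and -0.042 to 0.27 for Cav1, and interactions -0.97 to 4.59 for Hbb-bs, -2.71 to 4.73 for Hba-a2 and -3.25 to 3.87 for Hba-a1. For the artery-rule, vein-rule and interaction comparisons, no repeat without 1 library was run without rod-RNA cells. Signs also changed with equal numbers of cells (Abcb1a 0.077 and Slc7a5 0.054), without the drop rules (Slc7a5 0.030), with thinned cells (Ocln 0.018), against vein-rule cells with no filter on low counts (Car4 0.029), against them at a sum of at least 3 (Car4 0.20), and against them without rod-RNA cells (Vwf -0.97 and Cav1 -0.92). Precision was lowest in Ctrl 2, with 127 capillary cells and 429086 UMIs, and 9 vein-rule cells.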
